A study of Oryza sativa with 12 samples.

Results

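H2A.Z is a variant of the core histone H2A that replaces it in a share of nucleosomes. In plants it lies mainly around the start of transcribed genes and, in genes that respond to the environment, along the gene body. OsChz1 is a rice histone chaperone, a protein that carries histone dimers, and the study asked whether its loss alters H2A.Z in chromatin. The regions described here are the stretches of the rice genome in which H2A.Z was called in the unmutated rice and in no library of the mutant.

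The data are chromatin immunoprecipitation sequencing (ChIP-seq) peak tables from 30-day-old seedlings grown in long days. NIP is the label of the wild-type rice with an intact OsChz1 gene, and oschz1 is a CRISPR/Cas9 mutant whose small deletion causes an early stop codon. Each genotype has 2 libraries of H2A.Z ChIP and 2 of ChIP for H3, a core histone, and an input (chromatin without antibody) for each replicate number. One mutant allele was used, and whole seedlings were harvested, so a change in fewer cells and a smaller change in all cells cannot be told apart. Peak tables hold no reading of the mutation itself, so the genotype labels were not checked by it. The 4 H2A.Z libraries held 16886473 to 22192417 reads in 48048 to 49893 peaks, and the 4 H3 libraries held 9179714 to 14466571 reads in 49030 to 54026 peaks. The H2A.Z and the H3 library of a genotype and replicate number shared one input. The study calls the replicates biological, and errors are the SD between them.

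The 4 H2A.Z libraries gave 53148 regions once all peaks that share at least 1 bp were merged. Of these, 872 (1.64%) had a peak in both NIP libraries and in neither oschz1 library, and they are called NIP-only regions. They were 2.08% of the 41922 regions with a peak in both NIP libraries and covered 590.2 kb, or 0.714% of all H2A.Z regions by length. The regions were chosen by the H2A.Z peaks of all 4 libraries, so their H2A.Z values below are a description without a test. No H2A.Z value of oschz1 can be given for them, because the tables hold reads inside a library's own peaks only. Beside them stand 38211 stable regions, which had a peak in all 4 H2A.Z libraries, and 1219 regions called in both oschz1 libraries and in neither NIP library. Regions with a peak in exactly 1 NIP and 1 oschz1 library carry no contrast between genotypes, and their 4 sets held 763, 763, 464 and 431 regions. The NIP-only regions were thus more numerous than each of these sets and fewer than the oschz1-only regions.

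NIP-only regions were narrow and weakly enriched. Their median length was 600 bp, with 400 and 800 bp as quartiles and 2600 bp as the maximum, as compared to a median of 1400 bp for stable regions. The 4 sets of 1 NIP and 1 oschz1 library had a median of 600 bp as well, and the oschz1-only regions one of 800 bp. A length of 400 to 800 bp was found in 679 of the 872 (77.9%), 38 were a single window of 200 bp, and 8 reached 2000 bp. In 449 (51.5%) the peaks of both NIP libraries had identical ends.

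The median enrichment, that is ChIP reads over input reads scaled to equal library size, was 1.63-fold in NIP replicate 1 and 1.68-fold in NIP replicate 2. In stable regions the same libraries gave medians of 2.22 and 2.23. An enrichment of at least 2-fold was reached by 245 NIP-only regions (28.1%) in replicate 1 and by 271 (31.1%) in replicate 2, and by 63.8% and 63.6% of stable regions. Both libraries reached 2-fold in 114 regions (13.1%) and 3-fold in 13. The enrichment stayed below 1.5-fold in at least 1 of the libraries in 488 (56.0%). Most regions were thus below 2-fold in each library, although the median of each library alone was above 1.5. The oschz1-only regions had medians of 1.67 and 1.66 in the oschz1 libraries, and the sets of 1 NIP and 1 oschz1 library had medians of 1.56 to 1.66, close to the NIP-only values.

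Both the ChIP and the input density were lower in NIP-only than in stable regions, and as low in the sets of 1 NIP and 1 oschz1 library. Median ChIP density was 215 reads per kb in NIP replicate 1 and 170 in replicate 2, against 314 and 246 in stable regions. Median input density was 50 and 41.8 reads per kb, against 57.9 and 47.5. The sets called in NIP replicate 1 and 1 oschz1 library had 202.5 and 205 ChIP and 48 and 50 input reads per kb in that NIP library, and those called in NIP replicate 2 had 162.5 and 40 each. The median NIP-only region rested on 114 ChIP and 27 input reads in replicate 1 and on 89 and 22 in replicate 2. Fewer than 10 input reads lay under 37 regions in replicate 1 and under 74 in replicate 2, and 1 region had none in replicate 2.

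The NIP replicates ranked the regions only loosely alike. Across 871 regions with input reads in both libraries, the Spearman correlation of the enrichment was 0.264, while it was 0.519 across the stable regions, which span a wider range. These are correlations across regions of the same 2 libraries and are given without a test. Enrichment differed by more than 1.5-fold between the replicates in 222 NIP-only regions (25.5%) and in 14.4% of stable regions.

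**Figure D1:**
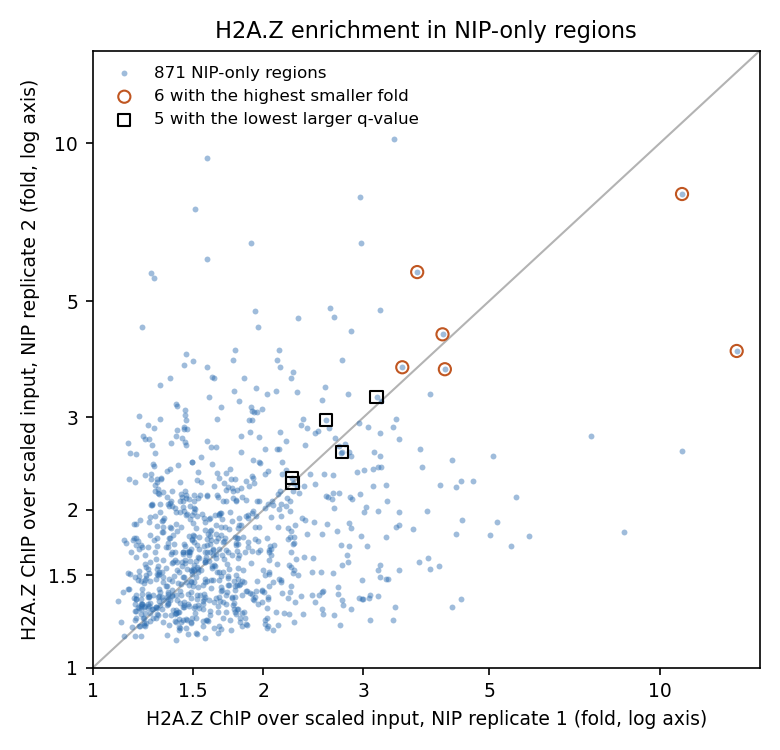
H2A.Z enrichment over scaled input of the 871 NIP-only regions with input reads in both libraries, NIP replicate 1 against NIP replicate 2 on log axes, with the line of equal values. Circles mark the 6 regions with the highest smaller fold and squares the 5 with the lowest larger q-value. Most points lie below 2-fold in both libraries, and many that are high in one replicate are low in the other.

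The peak caller's q-value, the share of false peaks expected at a peak's level, had to be at most 0.05. It was at most 1e-10 in both NIP libraries for 102 regions (11.7%) and above 0.001 in at least 1 of them for 329 (37.7%). Just inside the limit lay chr3:10411001-10412200 and chr8:17321401-17322000, each with a deciding q of 0.0490 in NIP and an enrichment of 1.202 in replicate 2. Just outside lay chr11:2978401-2979200 and chr2:26041801-26042200, which were called in both NIP libraries and left out through 1 oschz1 peak with a q of 0.0495 and 0.0492 and a fold of 1.21 and 1.18. In all, 2839 regions had peaks in both NIP libraries and in 1 oschz1 library, at a median oschz1 fold of 1.60.

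As a description, each region's smaller NIP fold was set beside the folds of the oschz1 peaks of the same length. It lay above the 5th percentile of those peaks in 696 NIP-only regions (79.8%) and above their median in 138 (15.8%). For peaks of 600 bp, that 5th percentile was 1.26 in both oschz1 libraries and the medians were 1.89 and 1.87. Both sides are folds of called peaks, so the shares do not tell whether a region's enrichment would have been called in oschz1.

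The 6 NIP-only regions with the highest smaller fold rested on few input reads. At chr8:9746001-9746600, NIP replicate 1 had 55 ChIP reads over 2 input reads (10.9-fold) and replicate 2 had 77 over 4 (7.999-fold). It lay 16200 bp from the nearest stable region and carried no H3 peak in any library. At chr6:1776801-1777600 the reads were 103 over 3 (13.7-fold) and 116 over 12 (4.02-fold), so the replicates differed although both ranked it high. The 200 bp region chr1:1933201-1933400 had 52 ChIP reads over 5 input reads in each library, which gave 4.14 and 4.32, and the nearest oschz1 peak ended 400 bp before it. The other 3 were chr6:24409201-24409600, with folds of 3.73 and 5.68, chr2:16574601-16575400, with 4.18 and 3.71, and chr9:21187201-21187400, with 3.51 and 3.74. All 6 were 800 bp or shorter, and only chr2:16574601-16575400 overlapped an H3 peak, in oschz1 replicate 1.

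The 4 widest regions showed the opposite profile, with many reads and low folds. At chr5:6933801-6936400, which was 2600 bp long, replicate 1 had 456 ChIP reads over 145 input reads (1.25-fold) and replicate 2 had 375 over 120 (1.30-fold). The other 3 were 2200 bp long, chr1:14613001-14615200, chr1:22534801-22537000 and chr3:29527401-29529600, and their folds ranged from 1.22 to 1.44. In chr1:14613001-14615200 the NIP peaks covered 2200 bp in replicate 1 and 600 bp in replicate 2, so the merged length was set by 1 library there.

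The 5 regions with the lowest larger q-value were picked after their values had been seen. They were 1000 to 2000 bp long and had similar folds in both replicates. The first, chr10:22516801-22518200, had 724 ChIP reads over 91 input reads in replicate 1 (3.17-fold, q = 4.03e-149) and 546 over 69 in replicate 2 (3.29-fold, q = 4.25e-119). It was also among the regions in which H3 peaks were confined to NIP. A 1000 bp H3 peak lay in it in NIP replicate 1, with 317 ChIP over 88 input reads (1.34-fold), and one with the same ends in NIP replicate 2, with 264 over 65 (1.60-fold). Neither oschz1 library had an H2A.Z or an H3 peak inside it. Most H2A.Z peaks beside it were present in oschz1. The nearest one was called in oschz1 replicate 1 with a fold of 1.73 and not in replicate 2, as compared to 2.71 and 2.16 in NIP. A 600 bp peak on the other side had folds of 3.52 and 2.35 in oschz1, as compared to 3.62 in NIP replicate 1 and 2.58 in an 800 bp peak of NIP replicate 2. A 1600 bp peak past the nearest one had folds of 2.04 and 2.25 in oschz1 and 2.66 and 2.38 in NIP. Whether oschz1 had input reads inside the region cannot be seen in tables of peaks.

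The other 4 were chr6:1190801-1192600 with folds of 2.75 and 2.58, chr11:5735801-5737400 with 2.58 and 2.96, chr12:7587801-7588800 with 2.25 in each library, and chr10:10237601-10239600 with 2.25 and 2.299. The first 3 of them carried H3 peaks in both oschz1 libraries and in NIP replicate 1, and the last carried none. H3 peaks were thus still called in oschz1 at 3 of the 5 regions in which H2A.Z peaks were not.

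**Figure D2:**
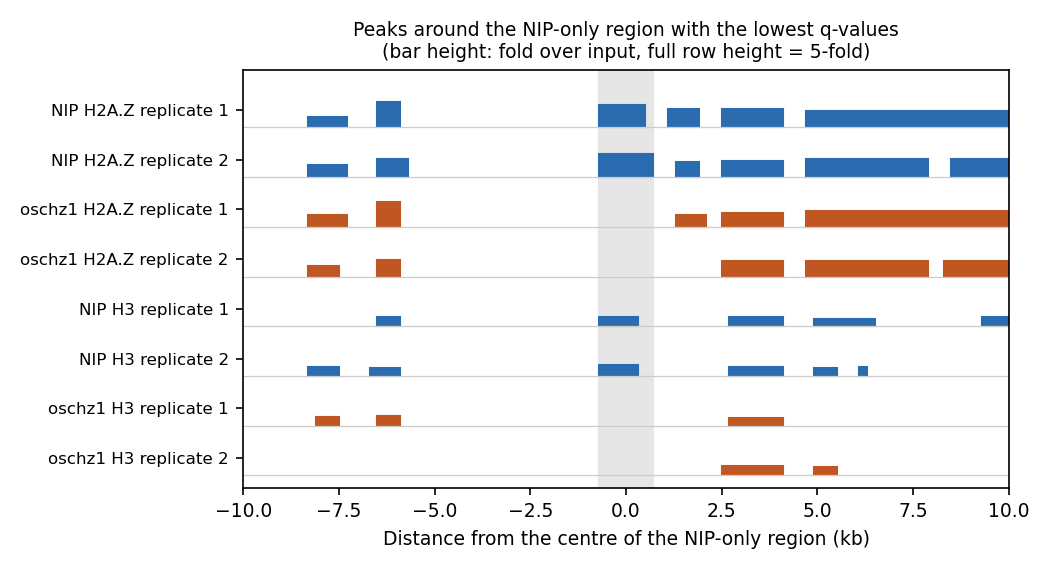
Peaks of the 4 H2A.Z and 4 H3 libraries within 10 kb of the centre of the NIP-only region chr10:22516801-22518200 (shaded), by distance in kb. Bar height is the fold over input, with a full row equal to 5-fold. Inside the shaded stretch the 2 NIP H2A.Z and the 2 NIP H3 libraries have peaks and the 4 oschz1 libraries have none, while neighbouring H2A.Z peaks appear in both genotypes.

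NIP-only regions lay near stable H2A.Z regions in part and far from them in part. The median distance to the nearest stable region was 2600 bp, with quartiles of 1000 and 5650 bp. It was 2200 bp for oschz1-only regions and 2000 to 2400 bp in the 4 sets of 1 NIP and 1 oschz1 library. From a stable region to the next one it was 1800 bp. Within 1 kb of a stable region lay 246 NIP-only regions (28.2%), as compared to 29.9 to 35.1% in the 4 sets, and beyond 10 kb lay 100 (11.5%), as compared to 9.70 to 11.0%. Both sides were flanked by a stable region within 5 kb in 230 (26.4%). An oschz1 H2A.Z peak of any kind began or ended within 400 bp of 129 (14.8%) and within 1 kb of 304 (34.9%), and 1 region touched such a peak.

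The 4 regions farthest from a stable region had folds below the NIP-only median in at least 1 NIP library, and irregular H3 peaks. At chr10:7926401-7926800, 67600 bp away, the folds were 1.28 and 1.29. At chr4:16996201-16996800, 59600 bp away, they were 1.78 and 1.36. At chr9:4622401-4622800, 43200 bp away, they were 1.61 and 3.28, the latter over 9 input reads. At chr5:11870001-11870800, 40000 bp away, they were 1.30 and 1.26. Each overlapped an H3 peak in 1, 2 or 3 of the H3 libraries and none of them in all 4. NIP-only regions did not form domains. No more than 2 lay within 20 kb of each other, in 43 pairs, while 786 stood alone, and the median gap between neighbours was 263.5 kb.

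**Figure D3:**
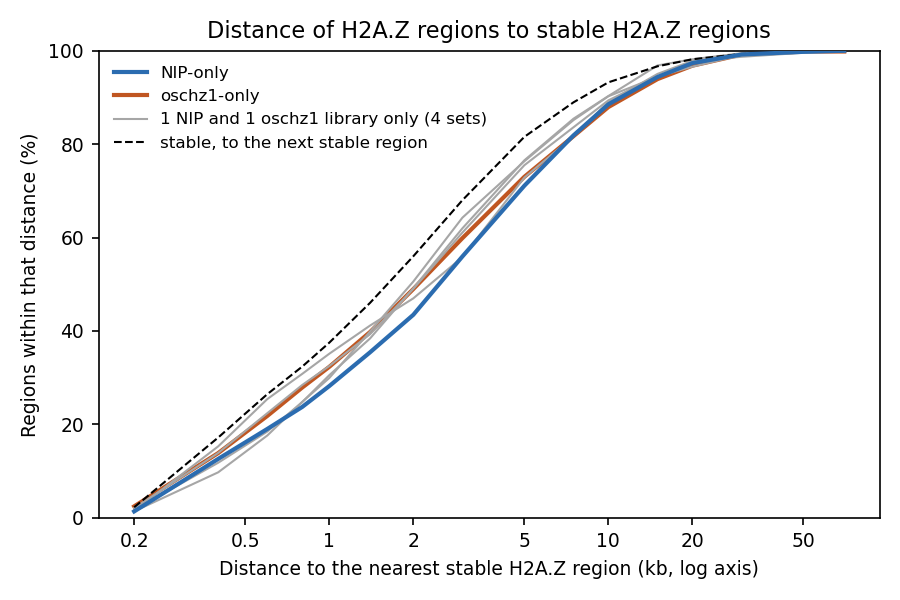
Share of regions (%) within a given distance (kb, log axis) of the nearest stable H2A.Z region, for NIP-only regions, oschz1-only regions, the 4 sets with a peak in 1 NIP and 1 oschz1 library, and stable regions to the next stable region. The NIP-only curve lies below the stable curve at every plotted distance up to 10 kb and close to the others, with 28.2% of NIP-only regions within 1 kb.

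All 12 chromosomes held NIP-only regions. Chromosome 1 had the most, 123 (14.1%, with 14.0% of stable regions). It held 10.4 to 12.8% of the sets of 1 NIP and 1 oschz1 library and 9.11% of the oschz1-only regions. Chromosome 10 had 70 (8.03%), a larger share than its 5.61% of stable regions and its 4.72 to 5.64% in the sets of 1 NIP and 1 oschz1 library. Its share of oschz1-only regions, 7.05%, was above these too. Its density of 3.02 per Mb was the highest of the 12 chromosomes. Chromosome 4 had 58 (6.65%), a smaller share than its 8.97% of stable regions and just below the 6.90 to 9.28% in those sets. Chromosome 9 had 5.16%, also below its 6.03 to 6.82% in those sets, and chromosome 11 had 5.85%, below its 6.29 to 8.13%. These shares come from one set of calls and carry no test.

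The stable regions nearest to NIP-only regions were read in both genotypes and did not enter as members. The 857 of them had median H2A.Z folds of 2.18 and 2.196 in NIP and 2.07 and 2.03 in oschz1. All stable regions had 2.22 and 2.23 in NIP and 2.10 and 2.08 in oschz1. The median log2 difference, oschz1 minus NIP, was -0.07 for the neighbours and -0.09 for all stable regions. Both oschz1 values lay below both NIP values in 26.3% of the neighbours and in 26.5% of all stable regions. Lower H2A.Z enrichment in oschz1 was thus about as frequent beside NIP-only regions as elsewhere.

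H3 marks nucleosomes irrespective of the variant, and the H3 libraries did not enter the choice of the regions, although they share inputs with the H2A.Z libraries. An H3 peak of any library overlapped 43.9% of NIP-only regions, 43.4% of oschz1-only regions, 30.7 to 38.6% of the sets of 1 NIP and 1 oschz1 library and 77.5% of stable regions. The share was lower than in stable regions at equal length too. Among regions of 400, 600 and 800 bp the share was 40.6%, 45.2% and 52.1% in NIP-only and 64.1%, 68.3% and 72.9% in stable regions.

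By library, H3 peaks lay in 27.9% and 24.8% of NIP-only regions in NIP and in 24.9% and 20.6% in oschz1. The mean was 26.3% ± 2.19 for NIP and 22.8% ± 3.0 for oschz1 (SD, n = 2). The value of oschz1 replicate 1 lay between both NIP values. The difference of -3.56 percentage points gave a two-sided exact permutation p of 0.667, where the smallest p that 2 libraries against 2 allow is 0.333. The difference was -2.98 points for replicate number 1 and -4.13 for number 2. In stable regions the shares were 56.9% and 53.3% in NIP and 55.8% and 51.6% in oschz1, a difference of -1.39. In oschz1-only regions the difference had the same sign, at -1.89, although the H2A.Z peaks were then in oschz1. When only H3 peaks with a q-value of at most 1e-10 were counted, the shares were 7.91% and 6.19% in NIP and 8.60% and 4.47% in oschz1, and the difference shrank to -0.52. When NIP folds of at least 1.5 were required in both libraries, it was -1.17.

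A second reading used H2A.Z peaks with q-values of at most 1e-10 in every library, which gave 1257 NIP-only regions. Of these, 102 (8.11%) overlapped one of the 872, or 11.7% of the latter, so that most had a weaker oschz1 peak instead of none. In the 1257 regions H3 peaks were found in 40.7% and 39.0% in NIP and in 29.8% and 27.2% in oschz1. The difference was -11.3 points without overlap between the genotypes (two-sided exact permutation p = 0.333, the smallest possible). These regions were chosen by H2A.Z q-values, which depend on the inputs that the H3 calls share. H3 shares of other sets of regions were not computed at this limit. The part of the inputs in this difference was not tested, so the difference is given as a description.

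The sets of 1 NIP and 1 oschz1 library allow the H3 calls to be read beside the shared inputs. In all 4 sets the H3 share was higher in both H3 libraries that shared an input with the H2A.Z libraries holding the peak. For peaks in NIP replicate 1 and oschz1 replicate 1 it was 22.4% and 23.1% in those libraries, and 13.5% and 13.8% in the other two. For NIP replicate 2 and oschz1 replicate 1 it was 26.1% and 27.8%, as compared to 19.6% and 16.8%. For NIP replicate 1 and oschz1 replicate 2 it was 19.4% and 18.5%, as compared to 13.1% and 13.8%, and for NIP replicate 2 and oschz1 replicate 2 it was 21.6% and 16.5%, as compared to 15.8% and 15.1%. The gap between the means was 9.11, 8.73, 5.50 and 3.60 percentage points in this order of the sets, while the means of NIP-only regions differed by 3.56. In oschz1-only regions the libraries sharing the inputs had the lower mean, a gap of -1.89 points. Libraries that share an input also share genotype and replicate number, so the input cannot be told apart from what else they share. The part of the inputs in the H3 share of NIP-only regions was not tested.

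**Figure D4:**
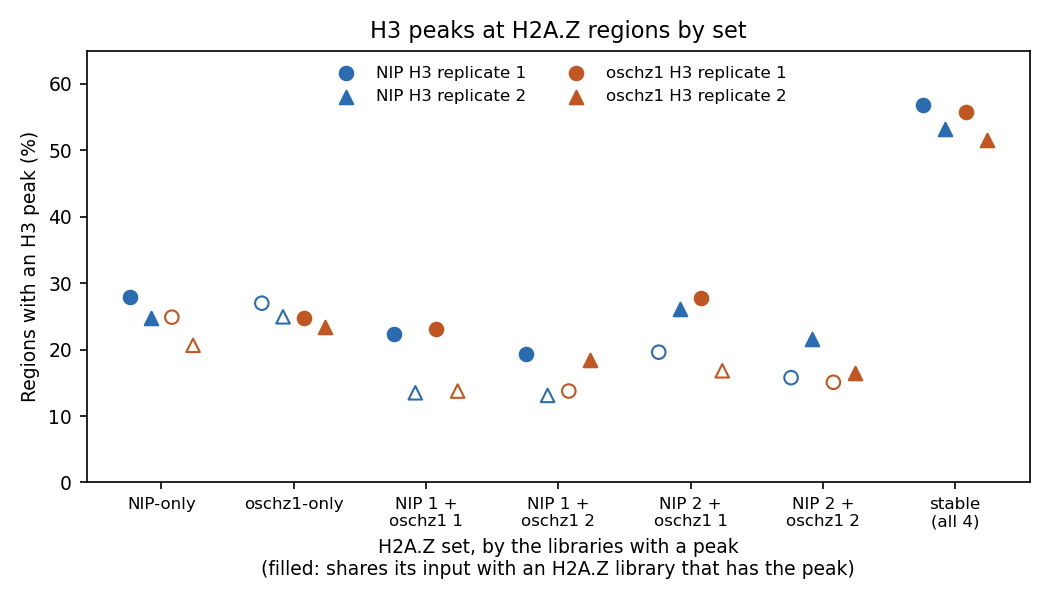
Share of H2A.Z regions (%) that overlap an H3 peak, for each of the 4 H3 libraries and each set of H2A.Z regions. Filled symbols are H3 libraries that share an input with an H2A.Z library in which the region was called. In the 4 sets of 1 NIP and 1 oschz1 library both filled symbols lie above both open ones, whereas in NIP-only regions oschz1 replicate 1 (24.9%) lies level with NIP replicate 2 (24.8%).

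No H3 peak was found in 489 NIP-only regions (56.1%), and 73 (8.37%) had one in all 4 libraries. In 36 (4.13%) both NIP libraries and neither oschz1 library had an H3 peak, and in 19 (2.18%) it was the reverse. The corresponding shares were 3.36% and 3.06% in stable regions and 4.02% and 2.87% in oschz1-only regions. In the sets of 1 NIP and 1 oschz1 library they were 0.786 to 3.02% and 1.05 to 1.72%. H2A.Z and H3 calls in NIP alone thus coincided in 36 of the 872 regions.

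The enrichment of H3 was read from the H3 peaks that overlap a NIP-only region, as the sum of ChIP reads over the sum of scaled input reads. It was 1.478 and 1.516 in NIP and 1.455 and 1.498 in oschz1, over 181 to 245 peaks a library. The difference, oschz1 minus NIP, was -0.02 (two-sided exact permutation p = 0.667), within the spread of the replicates. Over all H3 peaks the values were 1.451 and 1.496 in NIP and 1.462 and 1.505 in oschz1. In the 73 regions with an H3 peak in all 4 libraries the enrichment was 1.566 and 1.584 in NIP and 1.480 and 1.496 in oschz1. That difference of -0.09 separated the genotypes and had the smallest possible two-sided exact permutation p, 0.333.

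The inputs moved with it. The input density in these H3 peaks, relative to all H3 peaks of the library, was 0.992 and 1.003 in NIP and 1.1 and 1.084 in oschz1. The density of H3 ChIP reads on the same scale was 1.07 and 1.06 in NIP and 1.11 and 1.08 in oschz1. Reads of the input and of the H3 ChIP were thus both relatively fewer in NIP, and the input more so. In the 12 H3 peaks at NIP-only regions that had identical ends in all 4 libraries, the inputs held 0.199% and 0.198% of their reads in such common peaks for NIP and 0.213% and 0.245% for oschz1. In stable regions with H3 in all 4 libraries the relative input density was 1.15 to 1.16 in every library. In the sets of 1 NIP and 1 oschz1 library the low values lay with the libraries in which H2A.Z had been called. For NIP replicate 1 and oschz1 replicate 2 they were 0.970 and 0.962 there, and 1.09 and 1.08 in the other two, over 39 regions. For NIP replicate 2 and oschz1 replicate 1 they were 0.993 and 1.03, against 1.21 and 1.195, over 37 regions. For peaks in NIP replicate 1 and oschz1 replicate 1 the order held only in part, since oschz1 replicate 1 had 1.07 and oschz1 replicate 2 also 1.07. In oschz1-only regions they were 1.102 and 1.06 in oschz1 and 1.11 and 1.14 in NIP, over 114 regions. The input is a part of the peak call, so these values are a description, and its part in the NIP-only calls was not tested.

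**Figure D5:**
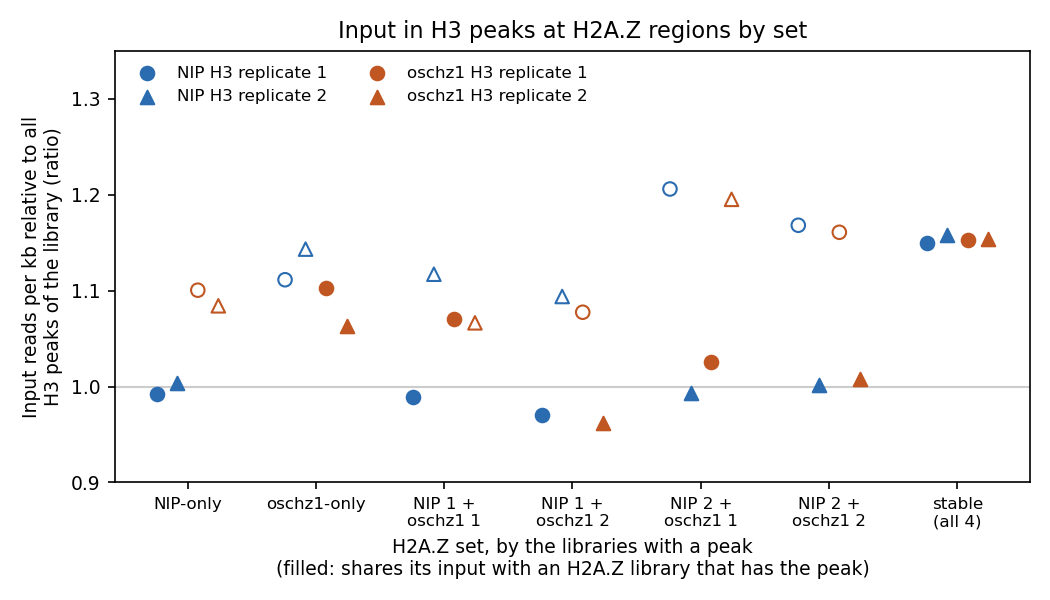
Input reads per kb in the H3 peaks at each set of H2A.Z regions with H3 peaks in all 4 libraries, relative to all H3 peaks of the same library (ratio; the vertical axis does not start at 0). Filled symbols are libraries whose input also served an H2A.Z library in which the region was called. In NIP-only regions the NIP values are 0.992 and 1.003 and the oschz1 values 1.1 and 1.084, and stable regions have 1.15 to 1.16 in each library.

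H3 reads were compared region by region across the genome, and the rows at NIP-only regions were then read out. Among 25178 merged H3 regions with a peak in all 4 libraries, edgeR's quasi-likelihood test called none lower and none higher in oschz1 (0% in each direction; Benjamini-Hochberg adjustment over all 25178, threshold 0.05). At an unadjusted p of at most 0.05, 508 were lower and 1542 higher, and DESeq2 called 71 lower and 98 higher after adjustment. At NIP-only regions lay 96 of the tested H3 regions, which overlap 95 of the 872. None of the 96 was called by edgeR, 1 was lower and 11 were higher at an unadjusted p of at most 0.05, and DESeq2 called 2 higher. These 2 lay at chr10:11079801-11081200 (log2 change 1.28, DESeq2 adjusted p = 0.00552) and chr7:29461001-29461600 (1.55, DESeq2 adjusted p = 0.0111). They are named because DESeq2 called them. Their H3 peaks covered 400 and 400 bp in NIP and 1400 and 1400 bp in oschz1 for the former, and 200 and 200 bp against 600 and 600 bp for the latter. The reads are sums over each library's own peaks, so a longer peak adds reads by itself. Of the 96, 12 had the same extent in all 4 libraries, 48 (50%) were longer in oschz1 by mean log2 length and 32 were shorter, as compared to 40.1% longer over all regions.

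The median log2 change of H3 reads, oschz1 minus NIP, was 0.15 at the 96 and 0.06 over all 25178. In 13 of the 96 (13.5%) both oschz1 values were under both NIP values, near the background of 12.9%, and in 36 (37.5%) they were above both, against a background of 27.7%. The direction of the median depended on the scale. With TMM factors the median was 0.09 at the 96 and -0.002 over all regions. On that scale 15.6% lay lower and 32.3% higher without overlap, against 20.9% each over all regions. As ChIP over scaled input the medians were -0.076 and -0.006. Here 20.8% lay lower and 15.6% higher, near the 17.8% and 17.4% over all regions. H3 reads in the called peaks were thus relatively high in oschz1 by count, with no such excess over input. The extent of the peaks differed with the counts, so neither scale gives a level of H3 over the same bases for the 96. At the 12 with the same extent in all 4 libraries, the median log2 change by count was 0.15. Over all 4237 such regions it was 0.04. The change was negative in 16.7% of the 12 and in 38.6% of the 4237. The part of peak length in the change at the 96 was not tested. Over all 25178 regions, no call was made on any of the 3 scales in edgeR or limma.

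Among NIP-only regions that themselves overlapped an H3 peak in all 4 libraries, the 6 with the largest log2 differences in H3 reads had higher mean values in oschz1, and none passed the test. This limit leaves out chr10:11079801-11081200, chr1:20460001-20463000 and chr9:15786601-15789800 (log2 differences 1.35, 1.02 and 0.83). There the H3 region was called in all 4 libraries but its peaks did not all reach the NIP-only region. All positions in this and the next paragraph are those of merged H3 regions, whose ends need not match those of the NIP-only regions. In each of the 6 the mean covered length was longer in oschz1 too, by 0.66 to 1.73 on the log2 scale. At chr7:29461001-29461600 the H3 RPM (reads scaled to the total in peaks) were 4.08 and 4.91 in NIP and 11.2 and 16.6 in oschz1, without overlap, over 200 bp in each NIP and 600 bp in each oschz1 library (log2 change 1.62 ± 0.28 SE, edgeR adjusted p = 0.279). Its input reads were 11 and 14 in NIP and 41 and 30 in oschz1, and the enrichment of 1.916 and 1.373 in NIP overlapped that of 1.355 and 2.374 in oschz1. At chr7:16630201-16630800 the H3 values were 4.37 and 4.41 in NIP and 7.95 and 8.93 in oschz1, over the same lengths as in the first (log2 change 0.94 ± 0.22 SE, edgeR adjusted p = 0.420). Here the input reads were 6 and 10 in NIP and 32 and 30 in oschz1, and the enrichment was higher in both NIP libraries, 3.71 and 1.72, than in both oschz1 libraries, 1.23 and 1.28.

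At chr2:16401201-16402400 the H3 values were 4.08 and 8.11 in NIP and 7.60 and 14.4 in oschz1, with overlap between the genotypes. At chr7:19929401-19932000 they were 14.8 and 17.7 in NIP and 38.4 and 19.2 in oschz1, so that oschz1 replicate 1 carried most of the difference. The last 2 were chr6:25972001-25974600, with 26.5 and 6.31 in NIP and 29.7 and 26.6 in oschz1, and chr9:11273601-11274600, with 11.5 and 6.51 in NIP and 13.5 and 17.2 in oschz1. In the former, NIP replicate 2 alone stood apart. The log2 changes of these 4 ranged from 0.75 to 0.85, with edgeR adjusted p-values of 0.626 to 0.775.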

How the data were processed

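The series has 12 samples, 2 each of H2A.Z ChIP, H3 ChIP and input from NIP and from oschz1 seedlings, and 8 peak tables. Sample titles gave the groups and numbers. The authors mapped the reads to the MSU7 rice genome with Bowtie2, removed reads of mapping quality below 20 and duplicates with SAMtools, and called H2A.Z peaks in each library against its input with SICER (windows and gaps of 200 bp, false discovery rate 0.05). The caller for H3 is not given in the study's methods, and SICER is the only one in the submitters' processing notes. The deposited columns hold ChIP and input counts, which are not normalised, the caller's p-value and q-value, and a fold, the ratio of ChIP reads to input reads after scaling by library size. All positions are from the deposited tables and count from 1. A genome and annotation of that build were not used here, so genes and sequences at the regions were not analysed here.

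The regions, sets and alternatives were chosen with earlier results of these data known. Regions were named by 5 rules. They took the 6 highest smaller NIP folds, the 4 widest and the 4 farthest from a stable region. They also took the longest run within 20 kb, which led to no named region. The last took the 6 largest changes in H3 reads among those that themselves overlap an H3 peak in all 4 libraries. Also named, outside these rules, were the regions with the lowest larger q-values, those nearest the q-value limit, those called by DESeq2 and H3 regions left out by the last rule. H3 counts were tested with edgeR 4.0.16 in R 4.3.3, with reads in peaks as library size, over H3 regions that all 4 libraries had called, and p-values were adjusted over all 25178. DESeq2 1.42.0, limma 3.58.1 (pseudocount 0.5) and TMM factors were alternatives. Single values per library went into exact permutation tests (two-sided, scipy 1.17.1). The count test was also run on simulated counts without differences in peak length between libraries, so that run gives no check on such differences. Reads of several peaks of a library in one region were summed.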

Additional observations from a re-analysis of the deposited data

How the results depend on the processing

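The rule sets the number of NIP-only regions. It was 543 with NIP q-values of at most 0.001 in both libraries, 384 with NIP folds of at least 1.5, 568 with no oschz1 peak within 1000 bp, and between 733 and 1257 under the other 4 definitions, as compared to 872. With 1 library of 1 genotype left out it ranged from 1823 without NIP replicate 1 to 2481 without oschz1 replicate 1, since 3 libraries then decided. The mean H3 share stayed lower in oschz1 under all 13 alternatives, by 0.52 to 11.3 percentage points, and left-out replicates gave -9.33 to -2.99. All of them reuse the same H3 libraries and the inputs that these share with the H2A.Z libraries. Under several, oschz1 replicate 1 lay above NIP replicate 2, while both oschz1 values were lower with H2A.Z q-values of at most 1e-10. Both were also lower where the NIP peaks had to overlap by at least 50% of the region. The shares were then 28.9% and 25.7% in NIP and 25.3% and 21.1% in oschz1. The difference was also negative in stable regions (-1.39) and in oschz1-only regions (-1.89). H3 enrichment stayed lower in oschz1, at -0.09 in the regions with H3 peaks in all 4 libraries and -0.09 to -0.01 with a replicate left out. No direction reversed except the median log2 change of H3 reads at NIP-only regions, which was 0.15 and became -0.076 as ChIP over scaled input, where each value is divided by the input. Other alternatives left it at 0.07 to 0.20. The edgeR count of changed H3 regions was 0, and it was 35 among the 4237 regions whose ends were identical in every library (1 lower and 34 higher in oschz1, none of them at the 12 in NIP-only regions) and 169 with DESeq2 (for both, the cause was not tested). With the replicate block it was again 0, and the median at NIP-only regions was 0.17. The replicate numbers did not pair the libraries (correlation of deviations 3e-04). With 2 libraries a genotype, no exact test could pass 0.05, and a median of 22 to 27 input reads limits the precision of each region's fold.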
